A study of Homo sapiens with 6 samples.

Results

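The core Hippo genes are a kinase cassette and the pair of transcription coactivators that it restrains. They were taken here as 10 gene symbols chosen by function: STK3, STK4, SAV1, LATS1, LATS2, MOB1A, MOB1B, NF2, YAP1 and WWTR1. All 10 of 10 symbols were found among the 35793 genes of the deposited table, and all 10 passed the filter on low values, a mean of at least 10 normalized counts over the libraries. RNA was measured on day 15 of differentiation in cardiomyocytes derived from WTC11, an established human line of induced pluripotent stem cells. The wild-type group (WT) was unedited WTC11, and the knockout group (STK25KO) was an isogenic WTC11 derivative in which CRISPR/Cas9 had disrupted both copies of STK25. Each genotype had 3 biological replicates with no treatment, which made 6 libraries. The labels name 1 knockout line, so an effect of the edit cannot be told apart from any other difference between the lines.

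In the Hippo pathway the MST kinases (MST2, encoded by STK3, and MST1, encoded by STK4), held by the scaffold SAV1, phosphorylate the LATS kinases and their MOB1 partners. Activated LATS1 and LATS2 phosphorylate YAP (YAP1) and TAZ (WWTR1), which then stay out of the nucleus, while unphosphorylated YAP and TAZ enter it and switch on genes through TEAD factors. In the developing heart this control is known for limiting cardiomyocyte proliferation. STK25 is a kinase tied to STRIPAK, a phosphatase complex that acts on MST kinases, and STK25 itself has been described as an activator of LATS. The comparison therefore asked whether the transcripts of the cassette differed in cells edited at STK25. Much of the pathway's control works through phosphorylation, which RNA counts do not measure.

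The libraries held from 22443904 to 53224112 reads assigned to genes, a 2.37-fold range. WT replicate 2 and STK25KO replicate 1 stood apart from the other libraries on the second principal component, which carried 24.1% of the variance. In both, the mitochondrial genome took a larger share of the reads, 3.90% against 2.11% and 2.18% in the other WT libraries and 3.33% against 1.25% and 1.62% in the other STK25KO libraries. Both also had the lowest summed fibroblast and stromal markers of their genotype. Of the 9 such markers tested, 5 were lower in both libraries than in the others of their genotype on average. TCF21 and THY1 were instead the highest of their genotype there. The summed cardiomyocyte markers of both libraries were the highest of their genotype, mostly through MYL7, an atrial myosin light chain, while 4 of the 12 markers (ACTN2, MYH6, MYH7 and MYBPC3) were lowest there. Results were therefore also computed without these 2 libraries, an alternative chosen after the data were seen. All 12 cardiomyocyte markers listed were tested and present in every library, and their summed level ran from 1427834 to 1783573 normalized counts in the WT and from 2066223 to 3739525 in STK25KO. MYL7 alone ran from 441630 to 739950 in the WT and from 860614 to 2324410 in STK25KO, and did not pass the test (limma adjusted p = 0.114). By limma, 1 of the 12 fell and 0 rose: NKX2-5, a cardiac transcription factor, fell by 1.71 on the log2 scale (limma adjusted p = 0.00135). The genotypes did not overlap in 7 of the 12, or 58.3%, against 33.4% of all genes tested. DESeq2 called 7 of the 12, against 20.7% of all genes. Limma without WT replicate 2 and STK25KO replicate 1 called 8, against 28.9%. Of the 12 log2 fold changes, 8 were above 0 and 4 below. MYH6, the alpha myosin heavy chain, had a log2 fold change of -1.14 with no overlap (limma adjusted p = 0.0531). The targeted gene STK25 had 8874, 6774 and 8710 normalized counts in WT replicates 1, 2 and 3 and 3906, 3434 and 3820 in the STK25KO replicates. The groups did not overlap, and STK25 RNA fell by 1.12 on the log2 scale (SE 0.19, limma adjusted p = 0.00903), or with an adjusted p of 0.0609 without WT replicate 1.

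The cassette holds 4 pairs of sister genes, so reads of one copy could in principle have been counted for the other. No run of 31 bases, tested on both strands over all annotated coding transcripts, was shared by STK3 and STK4, by LATS1 and LATS2, by MOB1A and MOB1B or by YAP1 and WWTR1 (0 shared runs in each pair). The longest identical run between the coding sequences was 20 bases for the LATS kinases, 17 for the MOB1 genes and 21 for YAP1 and WWTR1. These runs are shown in capitals with the coding bases around them in lower case, 5′ to 3′ along the coding strand, because they mark the most similar stretch that a read could meet. Positions are from GENCODE 29 on GRCh38, and the MOB1 and YAP1 to WWTR1 stretches cross an exon junction, so that their genomic spans include an intron. LATS1 is read from chr6:149680331-149680390 and LATS2 from chr13:20983680-20983739, both on the minus strand. MOB1A is read from chr2:74167075-74172609 on the minus strand and MOB1B from chr4:70959017-70969963 on the plus strand. YAP1 is read from chr11:102227542-102229722 on the plus strand and WWTR1 from chr3:149520969-149526052 on the minus strand.
LATS1: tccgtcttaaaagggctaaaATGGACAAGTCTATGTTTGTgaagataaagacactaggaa
LATS2: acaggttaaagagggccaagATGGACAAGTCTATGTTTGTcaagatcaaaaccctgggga
MOB1A: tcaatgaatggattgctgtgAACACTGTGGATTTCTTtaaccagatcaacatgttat
MOB1B: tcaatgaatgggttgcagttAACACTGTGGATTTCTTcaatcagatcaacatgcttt
YAP1: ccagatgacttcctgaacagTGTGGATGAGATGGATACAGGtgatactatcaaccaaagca
WWTR1: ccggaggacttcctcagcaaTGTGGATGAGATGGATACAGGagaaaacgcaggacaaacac

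Overlap with other genes was larger for 3 members than for the rest. Of the 31-base runs of SAV1, 24.97% also occurred in transcripts of other genes, and 16.8% occurred in ATL1, a gene that averaged 101 normalized counts in the WT and 464 in STK25KO. For WWTR1 the share was 14.3%, with 12.0% in WWTR1-AS1, an antisense gene, and for YAP1 it was 12.4%, with 10.01% in AP000942.2. No level was given for WWTR1-AS1 or AP000942.2. The levels of SAV1, WWTR1 and YAP1 are therefore less certain, to an extent that these shares do not measure. The labels do not say whether strand was used. The shares of the other members ran from 0 for STK3 and LATS2 to 5.87% for LATS1. The symbols MST1 and TAZ in the table belong to other genes, the growth factor MST1 and tafazzin, and were not read as STK4 and WWTR1.

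None of the 10 core Hippo genes was called different between the genotypes by the test across all genes, where 12.8% of the 15536 genes tested were. That test was limma on log2(normalized count + 1), with p-values adjusted by Benjamini-Hochberg over all genes tested and a threshold of 0.05. With only 10 members, a count of 0 lies near that 12.8% and does not set them apart from other genes. Of the 10 members, 0 were called with limma, 0 with edgeR and 0 with DESeq2, where edgeR called 12% of all genes tested and DESeq2 called 20.7%. Without WT replicate 2 and STK25KO replicate 1 there were again 0 members, against 28.9% of all genes tested. At an unadjusted limma p under 0.05 there were also 0 members, against 27.5% of all genes. The genotypes did not overlap in 1 of the 10, MOB1A, against 33.4% of all genes tested. The median absolute log2 fold change was 0.23 for the members and 0.46 for all genes tested. A low level in a bulk library can come from fewer cells of a type or from less RNA per cell, and these cannot be told apart.

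**Figure D1:**
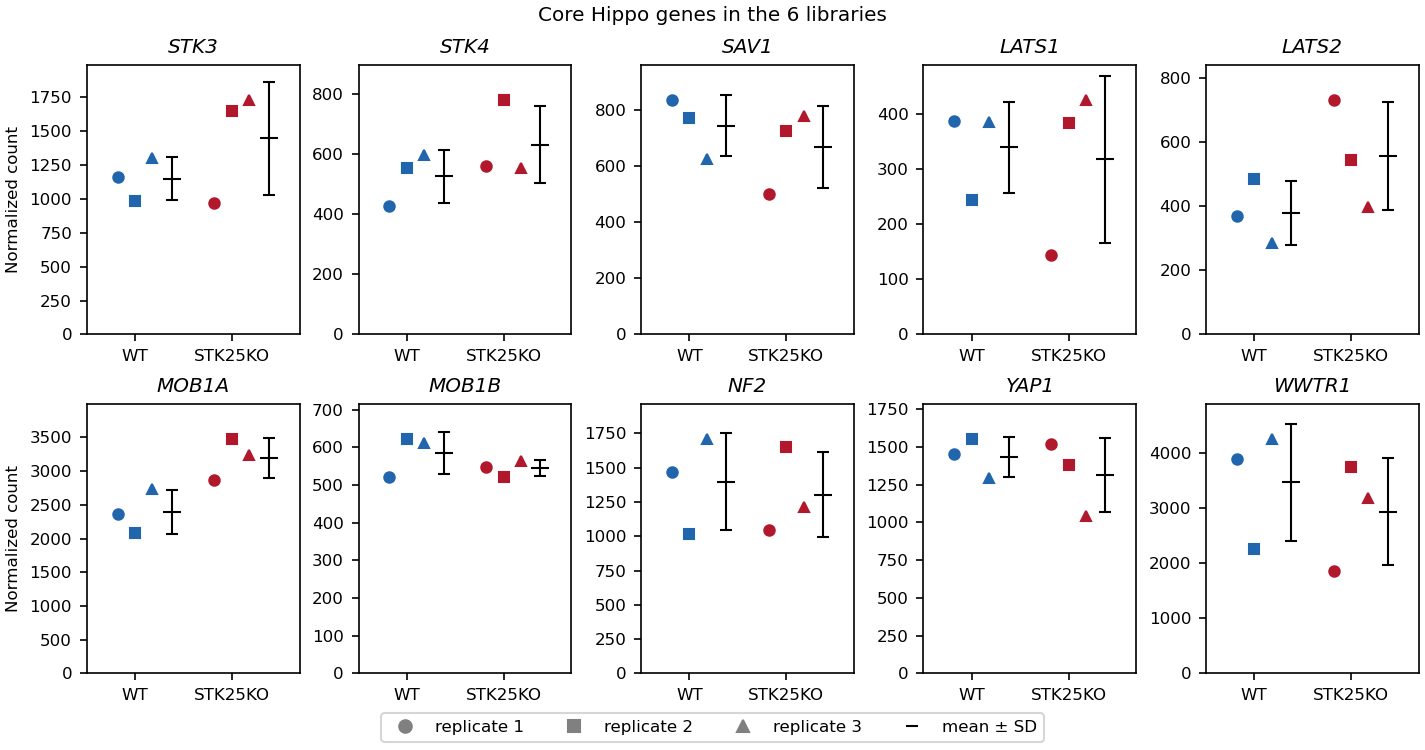
Normalized counts (vertical axis, from 0) of the 10 core Hippo genes in the 3 WT (blue) and 3 STK25KO (red) libraries, with symbols for replicate numbers and a black bar for each mean ± SD. In 9 panels the genotypes overlap, and in the MOB1A panel all STK25KO libraries lie above the WT libraries. LATS1 and WWTR1 are lowest in WT replicate 2 and STK25KO replicate 1.

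The MST kinases start the cassette. STK3 (chromosome 8, 98371228 to 98942827, minus strand) had 1160, 985 and 1302 normalized counts in WT replicates 1 to 3 and 969, 1647 and 1726 in STK25KO replicates 1 to 3. STK25KO replicates 2 and 3 were above every WT library, while STK25KO replicate 1 was below all of them. The log2 fold change, STK25KO minus WT throughout, was 0.30 (SE 0.27, 95% interval -0.33 to 0.93, limma adjusted p = 0.541). Without the libraries that stand apart it was 0.46 (SE 0.15, limma adjusted p = 0.0549), the lowest adjusted p of any member under any alternative. STK4 (chromosome 20, 44966474 to 45079959, plus strand) had 429, 554 and 599 normalized counts in the WT and 563, 780 and 555 in STK25KO. Its groups overlapped, with STK25KO replicate 2 the highest library, and its log2 fold change was 0.26 (95% interval -0.32 to 0.84, limma adjusted p = 0.568).

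SAV1 and NF2 bring the kinases together. SAV1 encodes the scaffold that binds the MST kinases and is found on chromosome 14, from 50632058 to 50668331 on the minus strand. It had 835, 774 and 624 normalized counts in the WT and 502, 724 and 780 in STK25KO, with STK25KO replicate 1 the lowest library and the rest overlapping. The log2 fold change was -0.17 (95% interval -0.75 to 0.42, limma adjusted p = 0.730). NF2 (chromosome 22, 29603556 to 29698598, plus strand) encodes merlin, which recruits LATS to the membrane. NF2 had 1471, 1018 and 1708 normalized counts in the WT and 1049, 1648 and 1212 in STK25KO. The lowest NF2 libraries were WT replicate 2 and STK25KO replicate 1, and the log2 fold change was -0.096 (95% interval -0.73 to 0.53, limma adjusted p = 0.867).

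The LATS kinases carry the signal to YAP and TAZ, and LATS1 had the largest SE among the members. LATS1 (chromosome 6, 149658153 to 149718256, minus strand) had 388, 244 and 386 normalized counts in the WT and 145, 385 and 425 in STK25KO. The low libraries were WT replicate 2 and STK25KO replicate 1, and the others of both genotypes lay close together. The LATS1 log2 fold change was -0.21 with an interval from -1.25 to 0.83 (SE 0.45, limma adjusted p = 0.819), and without STK25KO replicate 1 it was 0.28. As a ratio of STK25KO to WT, that interval ran from 0.421 to 1.78. LATS2 (chromosome 13, 20973032 to 21061547, minus strand), which is itself a target gene of YAP in many cells, had 370, 484 and 285 normalized counts in the WT and 730, 543 and 396 in STK25KO. The LATS2 groups overlapped through WT replicate 2 and STK25KO replicate 3. Its log2 fold change was 0.54, with an interval from -0.20 to 1.27 (SE 0.32, limma adjusted p = 0.325). Leaving out 1 library at a time, it ran from 0.32 without STK25KO replicate 1 to 0.76 without STK25KO replicate 3.

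The MOB1 proteins bind LATS and are needed for its activity. MOB1A (chromosome 2, 74152528 to 74178898, minus strand) had 2356, 2082 and 2728 normalized counts in the WT and 2874, 3473 and 3236 in STK25KO. All 3 STK25KO libraries were above all 3 WT libraries, which 33.4% of all genes tested also showed in one direction or the other. The MOB1A log2 fold change was 0.42 with an interval from -0.016 to 0.86 (SE 0.19, limma adjusted p = 0.198), and scaling all libraries to equal totals lowered it to 0.14. MOB1B (chromosome 4, 70902326 to 71022449, plus strand) had 521, 622 and 611 normalized counts in the WT and 548, 522 and 564 in STK25KO. All 3 STK25KO libraries fell between WT replicate 1, the lowest, and WT replicate 3. The MOB1B log2 fold change was -0.098 (SE 0.21, 95% interval -0.58 to 0.38, limma adjusted p = 0.815).

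YAP and TAZ are the coactivators that the cassette restrains. YAP1 (chromosome 11, 102110461 to 102233423, plus strand) had 1455, 1552 and 1292 normalized counts in the WT and 1523, 1382 and 1043 in STK25KO. STK25KO replicate 3 was the lowest library and the other libraries of both genotypes were interleaved. The YAP1 log2 fold change was -0.14 (SE 0.22, 95% interval -0.63 to 0.36, limma adjusted p = 0.744). WWTR1 (chromosome 3, 149517235 to 149736714, minus strand) had 3906, 2258 and 4258 normalized counts in the WT and 1861, 3753 and 3196 in STK25KO. As for LATS1, the low libraries were WT replicate 2 and STK25KO replicate 1. The WWTR1 log2 fold change was -0.25 with an interval from -1.04 to 0.54 (SE 0.34, limma adjusted p = 0.701), and it moved to 0.048 without STK25KO replicate 1.

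Read as intervals, 7 of the 10 members had a 95% interval that lay within a 2-fold change in either direction, against 30.7% of all genes tested. The exceptions were LATS1, LATS2 and WWTR1. A p-value over the threshold does not show that the genotypes had the same level, and changes inside these intervals remained compatible with the 3 libraries a genotype. The signs of SAV1, LATS1, NF2, YAP1 and WWTR1 were not stable, since each turned positive when 1 library was left out. Those of STK3, LATS2 and MOB1A stayed positive in every fit that left out 1 library and under every scaling tried, although STK3 came down to 0.014 with equal totals.

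**Figure D2:**
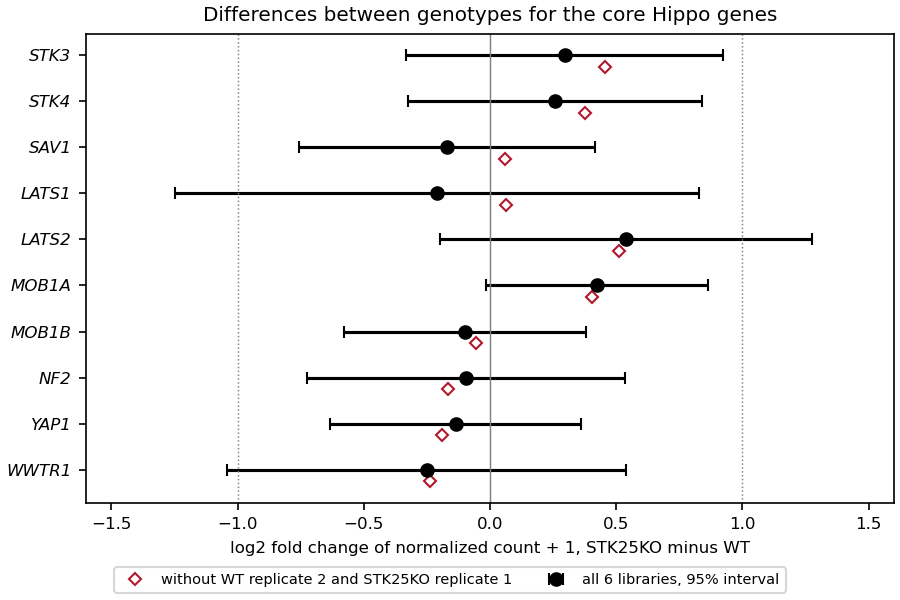
Log2 fold changes of the core Hippo genes (horizontal axis, STK25KO minus WT on log2 of normalized count + 1). Black points are the limma values over all 6 libraries with 95% intervals, red open diamonds the values without WT replicate 2 and STK25KO replicate 1, and dotted lines mark 2-fold. Every black interval crosses 0, from LATS2 at 0.54 to WWTR1 at -0.25.

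Levels were compared between members per kilobase of annotated exons. In the WT, WWTR1 had 413 ± 127 normalized counts per kilobase and MOB1A 371 ± 50.3 (SD, n = 3 each), the highest levels of the set. WWTR1 ran from 268 to 506 over the WT libraries and MOB1A from 323 to 424, so their order was not resolved. YAP1 followed with 228 ± 20.9, then NF2 with 195 ± 48.9 and SAV1 with 132 ± 19.3 normalized counts per kilobase (SD, n = 3 each). YAP1 and NF2 overlapped, and SAV1, from 111 to 148, met NF2 at its lowest library of 142. STK3 at 91.2 ± 12.6, LATS2 at 68.1 ± 17.9, MOB1B at 66.4 ± 6.27 and STK4 at 58.1 ± 9.72 normalized counts per kilobase (SD, n = 3 each) formed the next group, in which each overlapped its neighbour in that order. LATS1 was lowest with 39.3 ± 9.52 (SD, n = 3), from 28.3 to 44.9, below every WT library of STK4. The order depended on the length used: per kilobase of the longest coding transcript STK3 had 370 ± 51.1 (SD, n = 3), because its annotated exons sum to 12597 bases and that transcript to 3107. In STK25KO, MOB1A was highest with 496 ± 46.8 normalized counts per kilobase of exons and LATS1 again lowest with 36.8 ± 17.5 (SD, n = 3 each).

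The balance within each pair of sister genes was compared as the log2 ratio of their normalized counts, with an exact two-sided permutation test of 3 against 3 libraries, which cannot give a p under 0.1. The MOB1A to MOB1B log2 ratio was 2.17, 1.74 and 2.16 in the WT and 2.39, 2.73 and 2.52 in STK25KO. This ratio was the only one of 4 without overlap between the genotypes, with a difference of 0.52 (exact permutation p = 0.1, the smallest possible, and 0.4 adjusted over the 4 pairs). The LATS1 to LATS2 log2 ratio was 0.069, -0.98 and 0.44 in the WT and -2.32, -0.50 and 0.10 in STK25KO. It was lowest in WT replicate 2 and STK25KO replicate 1, and the difference of -0.75 between genotypes was smaller than the spread within STK25KO (SD 1.26, n = 3, exact permutation p = 0.6). Leaving out 1 library at a time, that difference ran from -1.25 without STK25KO replicate 3 to -0.039 without STK25KO replicate 1, and it was -1.16 without WT replicate 2.

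The YAP1 to WWTR1 log2 ratio was -1.42, -0.54 and -1.72 in the WT and -0.29, -1.44 and -1.61 in STK25KO. The ratio was closest to 0 in WT replicate 2 and STK25KO replicate 1. Per kilobase of exons, the YAP1 level was from 0.405 to 1.09 times that of WWTR1 over the 6 libraries. Its difference between genotypes was 0.11 (exact permutation p = 0.7) and changed sign without WT replicate 3, to -0.13, or without STK25KO replicate 1, to -0.30. The STK3 to STK4 log2 ratio averaged 1.13 ± 0.30 in the WT and 1.16 ± 0.43 in STK25KO (SD, n = 3 each; exact permutation p = 1). That difference of 0.038 changed sign without WT replicate 2, to -0.11, and without STK25KO replicate 3, to -0.20.

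**Figure D3:**
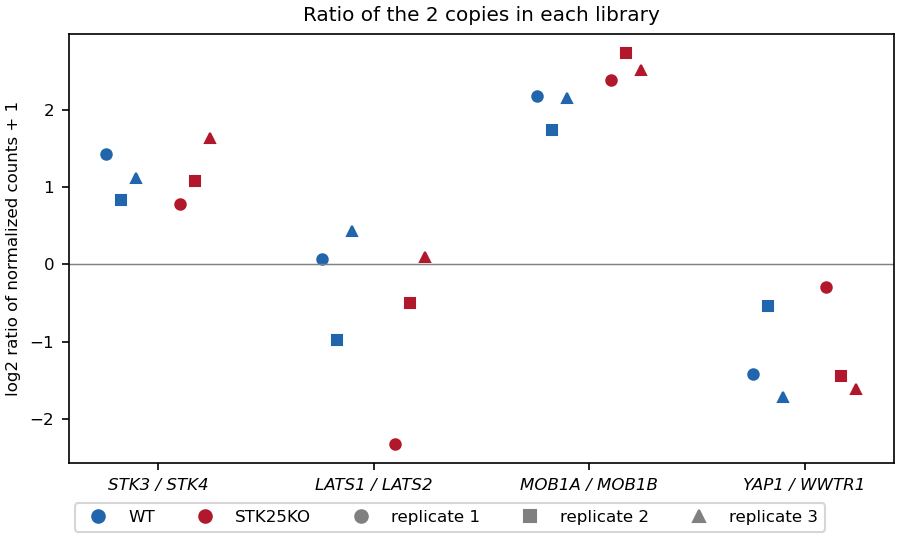
Log2 ratio of normalized counts + 1 of the 2 sister genes (vertical axis) in each WT (blue) and STK25KO (red) library, for the 4 pairs. The MOB1A to MOB1B ratios of the STK25KO libraries, from 2.39 to 2.73, lie above those of the WT libraries. The LATS1 to LATS2 ratio reaches -2.32 in STK25KO replicate 1.

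The libraries that stand apart were also compared with the other replicates of their genotype. LATS1 was lower in WT replicate 2 than the mean of WT replicates 1 and 3 by 0.66 on the log2 scale, and lower in STK25KO replicate 1 than the mean of the other STK25KO libraries by 1.47. The same differences were -0.85 and -0.90 for WWTR1, -0.64 and -0.43 for NF2, -0.32 and -0.80 for STK3, and -0.28 and -0.22 for MOB1A. LATS2 went the other way, by 0.57 and 0.65, as did YAP1, by 0.18 and 0.34. Of the 10 members, 5 were thus lower in both libraries, as were 38.01% of all genes tested, and 2 of the 10, LATS1 and WWTR1, by more than 0.5 in both, as were 16.2%.

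Transcript length moved with the same libraries. Tested genes were split into 4 equal groups by the length of their longest coding transcript. In the group with the shortest transcripts, up to 2159 bases, the median difference was 0.49 in WT replicate 2 and 0.46 in STK25KO replicate 1. In the group from 3403 to 5230 bases it was -0.33 and -0.34, and in the group of the longest, from 5231 bases, it was -0.26 and -0.084. LATS1, LATS2, STK4, MOB1B, NF2 and YAP1 belong to the longest group, and WWTR1 and MOB1A to the one before it. Every member had a longest coding transcript of at least 3063 bases. The summed fibroblast and stromal markers, 1 of 10 of which (FAP) was at 0, were 12981 normalized counts in WT replicate 2 and 8414 in STK25KO replicate 1, the lowest of each genotype, where the other libraries reached 26550 and 16844. Single markers did not all follow, since TCF21 and THY1 were the highest of their genotype in these libraries. The part of length, mitochondrial reads and cell mixture in the low LATS1 and WWTR1 values was not tested.

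**Figure D4:**
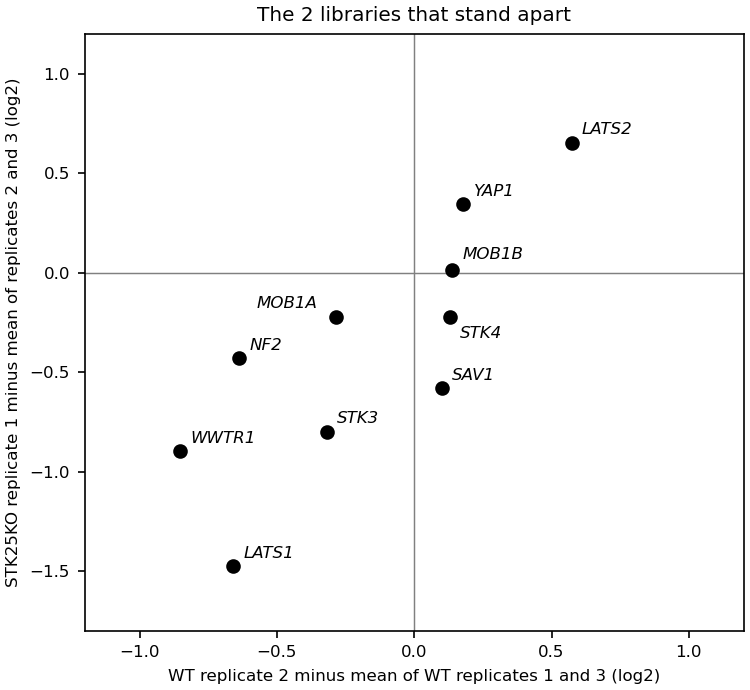
Each core Hippo gene by its log2 difference in WT replicate 2 from the mean of WT replicates 1 and 3 (horizontal axis) and in STK25KO replicate 1 from the mean of STK25KO replicates 2 and 3 (vertical axis). LATS1, WWTR1, NF2, STK3 and MOB1A lie below 0 on both axes, and LATS2 lies highest on both.

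The profiles of YAP1 and WWTR1 over the 6 libraries resembled different genes. Likeness was measured as the root-mean-square difference of log2 values after centring each gene on its mean, so that a smaller number is more alike. The nearest genes to YAP1 were MIDEAS (0.043), UTP14A (0.072) and MAPK8 (0.076), where the median over all tested genes was 0.52. The nearest to WWTR1 were L3MBTL2 (0.044), SEPTIN10 (0.047) and SUN2 (0.050), against a median of 0.65. Among the other members, MOB1B at 0.22 was nearest to YAP1, and NF2 at 0.20 and LATS1 at 0.23 were nearest to WWTR1. With 6 libraries and 15536 genes such neighbours are a description only.

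Around the cassette, 106 other genes of the pathway were listed by role, of which 99 were tested. Of the 99, 9 passed the limma threshold, or 9.09%, against 12.8% of all genes tested. All 9 were higher in STK25KO and 0 were lower, where 5.97% of all genes tested were called higher and 6.79% lower. With edgeR the count was also 9, where edgeR called 12% of all genes tested. DESeq2 called 17 of the 99, where it called 20.7% of all genes tested. Lists of genes that work beside or above the core gave no limma call: 0 of 6 NDR kinases and MOB relatives, 0 of 10 KIBRA, FERM and RASSF partners and 0 of 10 TAO and MAP4K kinases. DESeq2 called 2, 0 and 0 of these, and limma without WT replicate 2 and STK25KO replicate 1 called 2, 2 and 0. That last fit called 28.9% of all genes tested. STK38L, an NDR kinase related to LATS, had 1086, 788 and 1218 normalized counts in the WT and 1382, 2805 and 2660 in STK25KO, a log2 fold change of 1.10 that missed the threshold by limma (adjusted p = 0.0629). It passed with DESeq2 (adjusted p = 0.00682) and with limma without WT replicate 2 and STK25KO replicate 1 (adjusted p = 0.000584). STK38L was named after its values were seen.

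Among STRIPAK genes and the closest STK25 relatives, 2 of 18 rose by limma and 0 fell, or 11.1% called against 12.8% of all genes tested. SIKE1, which links STRIPAK to SLMAP, rose by 1.44 on the log2 scale (SE 0.21, limma adjusted p = 0.00527). CTTNBP2, a striatin-binding protein, rose by 0.78 (limma adjusted p = 0.0387), a call lost when any 1 library other than STK25KO replicate 1 was left out, with adjusted p-values up to 0.137, and with equal totals (adjusted p = 0.222). Among the inhibitors of LATS and YAP, 1 of 19 rose, or 5.26% called. That gene was AMOTL1, an angiomotin that binds YAP, with 110, 64.7 and 122 normalized counts in the WT and 453, 516 and 316 in STK25KO, a log2 fold change of 2.12 (SE 0.36, limma adjusted p = 0.00878). Among 14 polarity genes and atypical cadherins 2 rose, or 14.3% called: LLGL2, a polarity protein, by 1.64 (limma adjusted p = 0.00553), and DCHS1, a ligand of the cadherin FAT4, by 1.16 (limma adjusted p = 0.0269). Of these 14, 8 had a log2 fold change below 0, the lowest at -2.48, and none of the 8 passed the limma threshold. The DCHS1 call was lost when any 1 library other than STK25KO replicate 1 was left out, with adjusted p-values up to 0.0826, and with equal totals (adjusted p = 0.0805).

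The TEAD factors, which carry YAP and TAZ to DNA, and their VGLL relatives gave 0 limma calls among 6 tested. DESeq2 called 1 and limma without WT replicate 2 and STK25KO replicate 1 called 1, TEAD1 in both. Those 2 fits called 20.7% and 28.9% of all genes tested. TEAD1 had 1458, 1300 and 1333 normalized counts in the WT and 3311, 2423 and 1846 in STK25KO (SE 0.24 around a log2 fold change of 0.85, limma adjusted p = 0.0602, and 0.0117 with DESeq2 and 0.0315 without those libraries), and is named after its values were seen. Among the target genes of YAP and TAZ 5 of 23 rose by limma and 0 fell, or 21.7% called against 12.8% of all genes tested and 5.97% called higher, with a median log2 fold change of 0.39 for the list and 0.0052 for all genes tested. Of the 23, 17 had a log2 fold change above 0 and 6 below 0, the lowest at -1.89, and none of the 6 passed the limma threshold. LATS2 and NF2 belong to that target list as well and were not among the 5 that rose. CCN2, a secreted matrix protein, had 7401, 5480 and 7303 normalized counts in the WT and 26967, 46067 and 39025 in STK25KO, a log2 fold change of 2.45 (SE 0.26, limma adjusted p = 0.00126). CRIM1, a membrane protein that binds growth factors, rose by 2.46, and TGFB2, a growth factor, by 1.17 (limma adjusted p = 0.00613 and 0.0149). AMOTL1, also a target gene, and IGFBP3, named after its values were seen, were the others (0.88 for IGFBP3, limma adjusted p = 0.0158). The TGFB2 call was lost without WT replicate 3, STK25KO replicate 2 or STK25KO replicate 3, where its adjusted p reached 0.0609. The IGFBP3 call was lost without any of these or without WT replicate 1, where it reached 0.0866. With equal totals both calls were lost (adjusted p = 0.0988 for TGFB2 and 0.0908 for IGFBP3).

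Markers of other cell types also differed between the genotypes by limma, which called 5.97% of all genes tested higher and 6.79% lower. DESeq2, which called 20.7% of all genes tested, called 5 smooth muscle, 3 epicardial, 6 fibroblast and stromal and 3 neural markers. It also called 4 epithelial, 3 endoderm and liver, 2 pluripotency and 0 endothelial markers. The limma counts follow. Of 6 smooth muscle markers 5 rose and 0 fell, and their summed level ran from 81840 to 91696 normalized counts in the WT and from 494465 to 544402 in STK25KO, with 0 of the 6 at 0. Of 7 epicardial markers 6 were tested, of which 1, ALDH1A2, rose and 0 fell, and their summed level ran from 293 to 348 in the WT and from 608 to 873 in STK25KO. WT1 and TBX18, also epicardial, had log2 fold changes of 2.74 and 1.22 with no overlap between the genotypes. They did not pass by limma (adjusted p = 0.0584 and 0.0898) but passed with DESeq2 (adjusted p = 0.00335 and 0.0339). UPK3B, UPK1B and BNC1 had log2 fold changes of 0.16, -1.196 and -0.13 that did not pass. Of 10 fibroblast and stromal markers 9 were tested, of which 4 rose and 1 fell, and their sums overlapped, from 12981 to 26550 in the WT and from 8414 to 16844 in STK25KO. COL1A2 fell by 5.01 on the log2 scale, while COL3A1, DCN, TCF21 and THY1 rose by 2.61, 2.82, 5.28 and 2.95. COL1A1, with a log2 fold change of -1.10, did not pass (limma adjusted p = 0.0789). The overlapping sums thus mix large changes in opposite directions. Of 5 neural markers tested 3 rose (SOX2, PAX6 and TUBB3) and 0 fell, with sums from 4555 to 7866 in the WT and from 7073 to 16891 in STK25KO. Most of each sum came from NES and not from the 3 that rose. NES ran from 4502 to 7747 in the WT and from 6481 to 16198 in STK25KO. Its log2 fold change of 0.64 did not pass (limma adjusted p = 0.340). Of 7 epithelial markers 2 rose (KRT8 and KRT18) and 2 fell (KRT19 and CLDN6), with sums from 134034 to 141706 in the WT and from 284171 to 315229 in STK25KO. Most of each sum came from KRT8 and KRT18. EPCAM, CDH1 and CLDN7 had log2 fold changes of -0.20, 0.22 and -0.76 that did not pass (limma adjusted p = 0.660, 0.899 and 0.566). Of 4 endoderm and liver markers tested 1 rose (APOB) and 1 fell (AFP), with FOXA2 at 0. Of 5 pluripotency markers tested 1 rose (TDGF1), with UTF1 at 0, and of 4 endothelial markers tested 0 were called. Single markers in this paragraph were named after their values were seen. The part of cell mixture in the target genes was not tested.

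**Figure D5:**
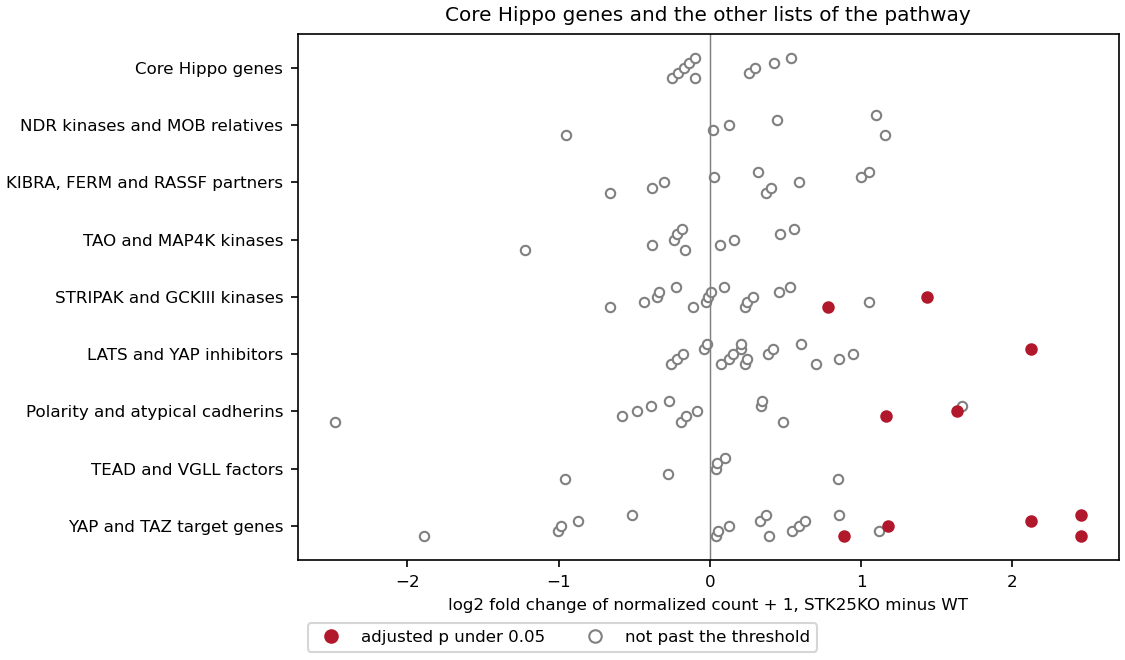
Log2 fold changes (horizontal axis, STK25KO minus WT on log2 of normalized count + 1) of the 10 core Hippo genes and of the other tested pathway genes by list, with the members left out of the other lists. Filled red points passed an adjusted p under 0.05 and open points did not. The core genes run from -0.25 to 0.54 with no filled point, and AMOTL1 stands in 2 lists.

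Promoters were searched for the TEAD motif, GGAATG or CATTCC on the other strand, in the 250 bases before each annotated start (RefSeq, GRCh38.p14). STK3 was left out of the search, and windows were found for the other 9 of the 10 members, 13 in all. The motif stood in 1 of the 13, that of YAP1, and in 11.9% of the 35116 windows of all genes. The YAP1 window is shown with the motif in capitals, beside that of the called target gene CCN2, whose window holds 3 copies. YAP1 is read from chr11:102110197-102110446 on the plus strand, where the first base of the motif lies 162 bases before the start. CCN2 is read from chr6:131951373-131951622 on the minus strand, with the first bases of its motifs 169, 104 and 95 bases before the start.
YAP1: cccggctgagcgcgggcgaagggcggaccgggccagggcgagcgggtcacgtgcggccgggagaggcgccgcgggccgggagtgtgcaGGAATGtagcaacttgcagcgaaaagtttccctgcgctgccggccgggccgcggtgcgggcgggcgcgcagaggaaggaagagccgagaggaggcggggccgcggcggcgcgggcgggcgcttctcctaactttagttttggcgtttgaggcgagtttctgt
CCN2: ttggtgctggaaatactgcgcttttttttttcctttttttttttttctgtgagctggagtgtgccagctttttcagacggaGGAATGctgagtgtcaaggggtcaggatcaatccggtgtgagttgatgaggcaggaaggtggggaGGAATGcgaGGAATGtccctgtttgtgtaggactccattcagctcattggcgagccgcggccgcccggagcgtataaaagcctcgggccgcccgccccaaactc
A match of these letters is a description of the window and shows neither binding nor its absence.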

How the data were processed

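The deposited table held 1 value per gene symbol and library, a signal that the authors call normalized counts. Per the submitters' processing notes, bcl2fastq 2.19, kallisto 0.44.0, DESeq2 1.28.1 and GRCh38 were used. Per the labels' protocols, NexteraXT libraries were built from cDNA of a Clontech Ultra Low v4 reaction. The annotation and any strand setting are not given in the sources used here. In every column 100% of the values were whole multiples of its smallest value above 0 (relative tolerance 1e-06), so whole reads were recovered. Columns were matched to samples by name, and 0 were left unused.

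Tests used R 4.3.3 and limma 3.58.1 (lmFit and eBayes with a trend) on log2(value + 1) for the 15536 genes with a mean of at least 10, with no covariate. Fold changes on that scale understate the change of low genes. Alternatives were other pseudocounts, filters and scalings, eBayes without a trend or robust, the replicate number as a block, leaving out libraries, and edgeR 4.0.16 and DESeq2 1.42.0 on the recovered reads. The fits were tested on simulated data. Replicates differed by more than counting noise (chi-square over its degrees of freedom, 20.3 to 398). Intervals cover the spread between 3 libraries a genotype; the labels mention no molecular identifiers. Gene lengths and positions came from GENCODE 29, and figures from Python 3.11.15 with matplotlib 3.10.9.

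The members, lists and tests were chosen with earlier results of these data known. Named genes were the 10 members, STK25, at most 4 called genes in each pathway list (the largest changes), and the 3 genes most like YAP1 and WWTR1; others are marked where named. STK3 was left out of the promoter search, and the STK3 and STK4 pair out of the search for the longest identical run, so no sequence of STK3 is printed.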

Additional observations from a re-analysis of the deposited data

How the results depend on the processing

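Over 19 alternatives, 0 of the 10 core Hippo genes passed the threshold under any, which made 190 values with a lowest adjusted p of 0.0549 (limma, STK3 without WT replicate 2 and STK25KO replicate 1). Leaving out 1 library at a time, the log2 fold change ran from -0.29 to 0.025 for SAV1, -0.49 to 0.28 for LATS1, -0.31 to 0.064 for NF2, -0.25 to 0.022 for YAP1, -0.53 to 0.048 for WWTR1, 0.15 to 0.56 for STK3, 0.097 to 0.36 for STK4, 0.32 to 0.76 for LATS2, 0.33 to 0.52 for MOB1A and -0.18 to -0.052 for MOB1B. With equal totals, which moved the median of all genes from 0.0052 to -0.27, STK4 was at -0.024, and with quantile normalization MOB1B was at 0.0026. Without WT replicate 2 and STK25KO replicate 1, SAV1 was at 0.058 and LATS1 at 0.062.

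The genes called among all tested numbered 798 with the replicate block, 3210 with DESeq2, 4483 without the 2 libraries that stand apart, and from 796 to 2181 without 1 library: 796 without WT replicate 1, 916 without WT replicate 3, 1292 without STK25KO replicate 2 and 962 without STK25KO replicate 3. The other pathway genes called numbered 5 with equal totals, 5 with the replicate block, 17 with DESeq2, 30 without the 2 libraries, and from 5 to 12 without 1 library, with 5 without WT replicate 3 or STK25KO replicate 3. STK25 stayed at -1.12 with the replicate block but with an adjusted p of 0.0684, ran from -1.24 to -1.05 without 1 library, and was at -1.28 without the 2 libraries that stand apart.

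The paralog ratio differences ran from -0.20 to 0.23 (STK3 to STK4), -1.25 to -0.039 (LATS1 to LATS2), 0.38 to 0.60 (MOB1A to MOB1B) and -0.30 to 0.46 (YAP1 to WWTR1) without 1 library. The highest WT level per kilobase was 15.3 times the lowest with the longest coding transcript in place of all exons, where it was 10.5 times. The cause of these changes was not tested. Deviations of same-numbered libraries correlated by -0.23, -0.40 and 0.17. The highest correlation between genotypes, 0.45, was that of WT replicate 2 with STK25KO replicate 1, the libraries that stand apart. With 3 libraries a genotype, these values cannot show whether same-numbered samples were paired. The replicate block changed no call of a member.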
